A study of Homo sapiens with 6 samples.

Results

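The genes described here encode subunits of the mTOR and TSC complexes and the GTPase RHEB in Hep3B, an established human hepatocellular carcinoma cell line. They were taken by name as parts of the pathway, not by a threshold on a measured value, and comprise 10 genes (MTOR, MLST8, DEPTOR, RPTOR, AKT1S1, RICTOR, MAPKAP1, TSC1, TSC2 and RHEB) of the 29908 in the deposited table. Hep3B-KD cells were transduced with a lentiviral short hairpin RNA that targets DAGLA, whose product diacylglycerol lipase alpha makes the endocannabinoid 2-arachidonoylglycerol. Hep3B-Con cells were transduced with a control virus, and both populations had been selected with puromycin. RNA-seq gave 3 libraries for each, and 1 hairpin was sequenced, so the loss of DAGLA and any other action of that hairpin cannot be told apart. Nothing in the labels says that the replicates were separate cultures, so p-values measure the spread between these libraries, which may be technical.

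mTOR is a serine/threonine kinase that works in a pair of complexes. mTORC1, defined by RPTOR (Raptor) and restrained by AKT1S1 (PRAS40), promotes protein and lipid synthesis and holds back autophagy when growth factors and amino acids are present. mTORC2, defined by RICTOR and MAPKAP1 (SIN1), phosphorylates AKT, SGK1 and protein kinase C, while MLST8 and DEPTOR are found in both complexes. The TSC complex of TSC1 and TSC2 switches off RHEB, the GTPase that activates mTORC1 at the lysosome. Much of this control acts on proteins and phosphorylation, which were not measured in these libraries.

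Values are FPKM (reads divided by a gene's exon length and by the library's total), so a comparison between genes depends on the exon lengths used. The recovered reads ranged from 15861039 to 17572714 per library. DAGLA itself measured 9.42, 9.40 and 9.02 FPKM in Hep3B-Con and 4.62, 4.46 and 4.78 FPKM in Hep3B-KD, a log2 fold change of -0.99 (SE 0.04, limma adjusted p = 5.25e-06), in the direction of the labels. The 8 liver cell markers were all present, and their summed level lay between 2699 and 2745 FPKM in Hep3B-Con and between 4391 and 4413 FPKM in Hep3B-KD. Of 8 markers of other cell types, 6 were matched and 2 had a mean of at least 1 FPKM, and their sum lay between 123 and 128 FPKM in Hep3B-Con and between 150 and 154 FPKM in Hep3B-KD. The leukocyte marker PTPRC was near 0, at 0.028 ± 0.013 FPKM in Hep3B-Con and 0.011 ± 0.0039 FPKM in Hep3B-KD (SD, n = 3 each). Each sum is carried mainly by 1 gene, ALB (2042 ± 25.9 and 3315 ± 6.9 FPKM) and EPCAM (122 ± 2.1 and 151 ± 1.9 FPKM; SD, n = 3 each). Single markers went both ways. Of the liver markers 7 rose, while HNF4A fell from 56.2 to 43.9 FPKM (limma adjusted p = 1.64e-05). Among the others KRT7 fell from 2.15 to 0.710 FPKM (limma adjusted p = 0.000169) and COL1A1 from 0.745 to 0.271 FPKM (limma adjusted p = 0.0072). Below the filter, COL1A2 measured 0.136 FPKM in Hep3B-Con and 0.0685 FPKM in Hep3B-KD, and PECAM1 0.197 and 0.339 FPKM. The part of these markers in the results was not tested.

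All 10 genes were detected, and all passed the filter of a mean of at least 0.5 FPKM. In Hep3B-Con the mean level fell in the order RHEB, AKT1S1, MAPKAP1, MTOR, MLST8, RPTOR, TSC2, TSC1, RICTOR and DEPTOR, from 20.7 to 0.623 FPKM. The 3 RHEB and 3 AKT1S1 values overlapped, and all other neighbours in that order were separate. In Hep3B-KD the order was MAPKAP1, RHEB, MTOR, AKT1S1, RPTOR, MLST8, TSC1, TSC2, RICTOR and DEPTOR, from 19.8 to 0.722 FPKM. There AKT1S1 overlapped RPTOR, and MLST8 overlapped TSC1. The length used for each gene is that of all its annotated exons together, from 2622 bases for DEPTOR to 19626 bases for TSC2, which lowers the FPKM of genes with many alternative exons.

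**Figure D1:**
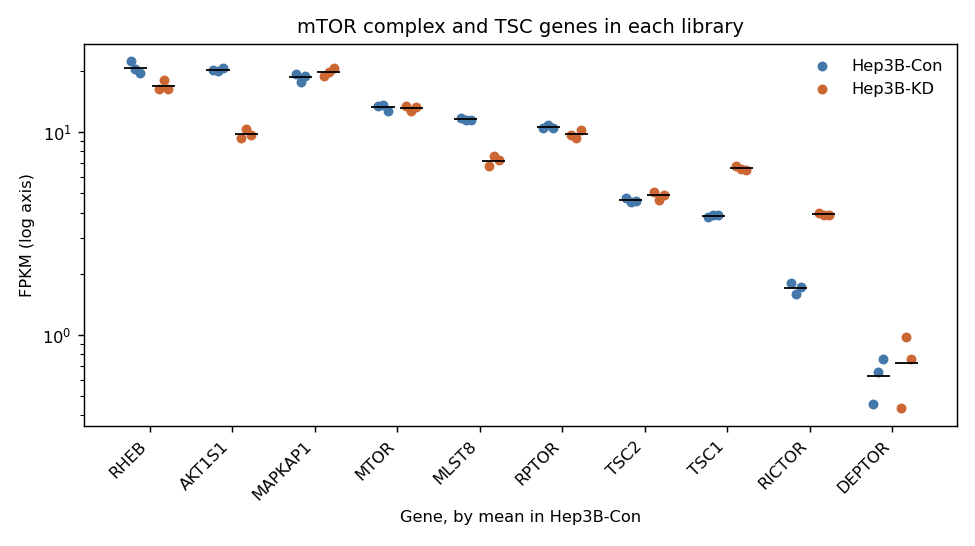
FPKM (log axis) of the 10 genes in each of the 3 Hep3B-Con and 3 Hep3B-KD libraries, with a point per library and a black line at the group mean. AKT1S1, MLST8, TSC1 and RICTOR show the widest gaps between groups, while the points of MTOR, MAPKAP1, TSC2 and DEPTOR overlap.

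In Hep3B-KD cells RICTOR and TSC1 rose, whereas AKT1S1, MLST8, RHEB and RPTOR fell. MTOR, MAPKAP1, TSC2 and DEPTOR did not pass the test. The 6 of 10 called genes (adjusted p under 0.05 at any fold) compare with 59.9% of the 14221 genes tested, so the number called is close to that of genes in general. The 2 that rose compare with 36.1% of all genes called higher and the 4 that fell with 23.8% called lower. RICTOR and AKT1S1 also changed by at least 2-fold, 2 of 10 beside 8.83% of all genes. The median log2 fold change was 0.04 over the 10 genes and 0.11 over all genes tested. Centring the libraries on their median log ratio brought the latter to 0.01 and turned the split of all calls from 5133 higher and 3388 lower to 4064 higher and 4308 lower. In a bulk library a change in every cell and a change in the mix of cells cannot be told apart.

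RICTOR, the subunit that defines mTORC2, lies at chr5:38937919-39074408 (GRCh38, minus strand). It measured 1.79, 1.58 and 1.71 FPKM in Hep3B-Con and 3.98, 3.90 and 3.88 FPKM in Hep3B-KD. The groups were well apart, and behind the values stood 373 to 426 reads in Hep3B-Con and 849 to 873 in Hep3B-KD. The log2 fold change was 1.17 (SE 0.07, 95% CI 1.001 to 1.33, limma adjusted p = 1.56e-05). RICTOR has 13550 bases of annotated exon. Its log2 fold change was 0.65 (limma adjusted p = 0.000296) once genes were centred within bins of exon length and then of GC content, an alternative added after the data had been seen. MAPKAP1, the other of the 10 genes that is particular to mTORC2, measured 19.3, 17.7 and 18.8 FPKM in Hep3B-Con and 18.9, 19.8 and 20.6 FPKM in Hep3B-KD. Those groups overlapped, with a log2 fold change of 0.09 (95% CI -0.02 to 0.20, limma adjusted p = 0.137).

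The 241 bases just upstream of the RICTOR gene are shown because this member had the largest absolute log2 fold change on the deposited scale (RefSeq, GRCh38.p14, chr5:39074409-39074649, minus strand, printed 5′ to 3′). AKT1S1 had the larger one with a pseudocount of 1 (-0.98 against 0.87), after centring on the median log ratio (-1.15 against 1.06), after quantile normalization (-1.06 against 0.96) and after centring by length and GC content (-1.06 against 0.65). Capitals mark every GC box (GGGCGG) and CCAAT box (CCAAT) found on either strand.
RICTOR: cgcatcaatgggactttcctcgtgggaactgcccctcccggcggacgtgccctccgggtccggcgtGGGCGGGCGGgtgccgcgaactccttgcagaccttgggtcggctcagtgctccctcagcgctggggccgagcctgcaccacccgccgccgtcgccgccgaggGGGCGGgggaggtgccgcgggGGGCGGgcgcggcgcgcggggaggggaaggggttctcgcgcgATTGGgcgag
It holds 4 GC boxes, a pair of which overlap, and 1 CCAAT box. Over the 250 bases upstream of 35116 RefSeq promoters, 42.64% hold a GC box and 32.01% a CCAAT box. RICTOR's window holds 0 matches to the E-box (CACGTG, in 6.34% of promoters), the CRE (TGACGTCA, 1.65%), the ATF4 composite element (TGATGNAA, 3.14%) and the TEAD site (GGAATG, 11.89%), and the same 4 motifs were matched 0 times in the other 6 members with a listed promoter. MLST8, AKT1S1 and DEPTOR had no entry. These matches describe letters only.

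The 3 tested genes whose log2(FPKM + 0.1) followed RICTOR most closely over the 6 libraries were PPP2R5A (Pearson r = 0.9999), GPRC5C (0.9998) and PHC3 (0.9996). PPP2R5A, a regulatory subunit of protein phosphatase 2A, measured 9.34 ± 0.41 FPKM in Hep3B-Con and 17.8 ± 0.18 FPKM in Hep3B-KD. GPRC5C, an orphan receptor, measured 9.45 ± 0.43 and 18.1 ± 0.11 FPKM, and PHC3, a Polycomb protein, 1.71 ± 0.066 and 3.61 ± 0.064 FPKM (SD, n = 3 each). With 2 groups this far apart, r is set mainly by the group difference and is given as a description.

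AKT1S1, the inhibitory mTORC1 subunit that AKT phosphorylates, lies at chr19:49869033-49878459 (GRCh38, minus strand). It measured 20.1, 19.9 and 20.7 FPKM in Hep3B-Con and 9.34, 10.3 and 9.62 FPKM in Hep3B-KD. Every Hep3B-KD value was below every Hep3B-Con value, and the log2 fold change was -1.04 (SE 0.04, 95% CI -1.15 to -0.94, limma adjusted p = 3.88e-06). Exons of AKT1S1 share 392 bases with TBC1D17 on the opposite strand, 6.83% of its length, and the strand setting of the authors' counting was not given in the sources used here. TBC1D17 rose (log2 fold change 0.56, limma adjusted p = 7.2e-05).

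RPTOR, the mTORC1 subunit that recruits substrates, measured 10.4, 10.9 and 10.4 FPKM in Hep3B-Con and 9.62, 9.34 and 10.2 FPKM in Hep3B-KD. The groups did not overlap, but the lowest Hep3B-Con and highest Hep3B-KD values were close together. The log2 fold change of -0.12 (SE 0.04, 95% CI -0.22 to -0.02) passed narrowly (limma adjusted p = 0.0461). The call was lost when Hep3B-Con replicate 1, 2 or 3 or Hep3B-KD replicate 1 or 2 was left out (limma adjusted p = 0.0755, 0.131, 0.0788, 0.111 and 0.128).

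MLST8, the subunit that binds the kinase domain in both complexes, lies at chr16:2204248-2209416 (GRCh38, plus strand). It measured 11.7, 11.4 and 11.5 FPKM in Hep3B-Con and 6.77, 7.58 and 7.25 FPKM in Hep3B-KD. The groups were well apart, with a log2 fold change of -0.67 (SE 0.05, 95% CI -0.79 to -0.56, limma adjusted p = 3.55e-05). Its exons share 164 bases with BRICD5 on the opposite strand, which rose from 0.879 ± 0.32 to 1.81 ± 0.28 FPKM (SD, n = 3 each, limma adjusted p = 0.0171). MTOR, the kinase, measured 13.5, 13.5 and 12.7 FPKM in Hep3B-Con and 13.4, 12.7 and 13.3 FPKM in Hep3B-KD. Its groups overlapped throughout, and the log2 fold change of -0.01 (limma adjusted p = 0.906) had a 95% CI of -0.10 to 0.09. Centring within bins of exon length and GC content gave MTOR -0.20 (limma adjusted p = 0.00326).

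DEPTOR, an inhibitory subunit of both complexes, was the lowest member, at 0.456, 0.658 and 0.756 FPKM in Hep3B-Con and 0.433, 0.974 and 0.759 FPKM in Hep3B-KD. These rest on 18 to 41 reads per library. The groups overlapped, and the 95% CI of the log2 fold change, -0.63 to 0.93 (limma adjusted p = 0.718), leaves a wide range of differences not detectable at this depth.

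The guide strand of the hairpin is shown with a matching stretch of MLST8 because the 2 members whose longest 3′ UTR holds a match to its seed, AKT1S1 and MLST8, were also those that fell most. The target is the DNA sequence that the study lists for its hairpin. The guide is its reverse complement, derived here, with bases 2 to 8 (the seed) in capitals. Where the processed guide starts in the cells was not given, and another start would change the seed and its matches. In the MLST8 sequence (GENCODE release 29, mRNA sense), capitals mark the 7 bases that pair with the seed.
shDAGLA target: gcgacaacaaggccttcaa
guide strand: tTGAAGGCcttgttgtcgc
MLST8: ttgtctgcctgGCCTTCAatgacagtgtg
Among the longest 3′ UTRs of the 10 genes, these 2 held the match GCCTTCA. Of 11189 tested genes with a 3′ UTR of at least 50 bases, 14.6% held it. AKT1S1 and MLST8 also held the 8-base match GCCTTCAA, which 3.3% of the 11189 genes held. In AKT1S1 the match lay in the 3′ UTR of 6 of 6 coding transcripts. In MLST8 it lay in the 3′ UTR of 1 of 6 and before the 3′ UTR in the other 5. MTOR, RPTOR and RHEB each had 1 coding transcript with a match before the 3′ UTR. The part of the seed in the lower levels was not tested.

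TSC1 (hamartin), which stabilises TSC2, lies at chr9:132891348-132946874 (GRCh38, minus strand). It measured 3.80, 3.90 and 3.88 FPKM in Hep3B-Con and 6.79, 6.57 and 6.46 FPKM in Hep3B-KD. Replicates lay close together and the groups far apart, with a log2 fold change of 0.76 (SE 0.04, 95% CI 0.66 to 0.86, limma adjusted p = 1.31e-05). TSC2 (tuberin), the GTPase-activating subunit, measured 4.73, 4.50 and 4.58 FPKM in Hep3B-Con and 5.08, 4.63 and 4.90 FPKM in Hep3B-KD. The groups overlapped, and the log2 fold change was 0.08 (95% CI -0.05 to 0.20, limma adjusted p = 0.234). TSC2 shares 402 exon bases with NTHL1 and 778 with PKD1, both on the opposite strand. NTHL1 fell (log2 fold change -0.41, limma adjusted p = 0.00418), as did PKD1 (-0.49, limma adjusted p = 0.000156). Further genes whose exons overlap a member (MTOR-AS1, OSMR, GFI1B, AP005717.1 and, at RPTOR, AC127496.1, AC127496.3 and AC127496.4) were near 0, with group means of at most 0.247 FPKM.

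RHEB measured 22.2, 20.4 and 19.5 FPKM in Hep3B-Con and 16.3, 18.0 and 16.2 FPKM in Hep3B-KD. The groups were separate by a small margin, with a log2 fold change of -0.30 (SE 0.06, 95% CI -0.45 to -0.15, limma adjusted p = 0.00589). RHEBP2, a processed copy at chr10:47706203-47706802 (GRCh38) that is 98.67% identical to the RHEB transcript, was listed with 216 to 338 reads per library, and reads of the pair may have been split between them. With the reads of RHEBP2 added, the log2 fold change of RHEB was -0.28 (limma adjusted p = 0.0138). A second copy, RHEBP1 (99.1% identical), had 0 to 2 reads per library.

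**Figure D2:**
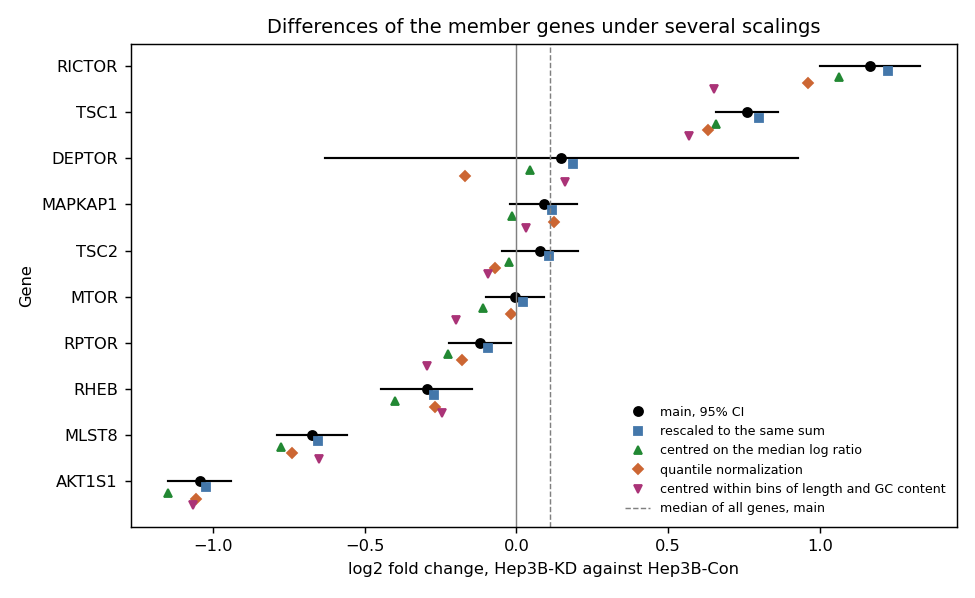
Log2 fold change of each gene, Hep3B-KD against Hep3B-Con, with its 95% CI (black) and the values under 4 other scalings (coloured). The values of RICTOR and TSC1 lie right of 0 and those of RPTOR, RHEB, MLST8 and AKT1S1 left of it under all 5, whereas MTOR, TSC2, MAPKAP1 and DEPTOR change side. The dashed line is the median of all genes, 0.11.

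Ratios between members within a library do not depend on a single scaling factor per library. Quantile normalization and centring by length and GC content shift genes by different amounts. Neither was run on the ratios, which they can change. After centring by length and GC content the log2 fold change of RICTOR was 0.65 and that of RPTOR -0.29. RPTOR to RICTOR, the pair that defines mTORC1 and mTORC2, was 5.82, 6.86 and 6.09 in Hep3B-Con and 2.42, 2.40 and 2.62 in Hep3B-KD. Its geometric mean was therefore 0.397 times as high in Hep3B-KD. TSC1 to TSC2 was 0.805, 0.866 and 0.846 in Hep3B-Con and 1.34, 1.42 and 1.32 in Hep3B-KD. In FPKM TSC1 was thus the lower of the pair in every Hep3B-Con library and the higher in every Hep3B-KD library. Which side of 1 a ratio lies on depends on the exon lengths used (17600 bases for TSC1 and 19626 for TSC2). The change between groups does not. AKT1S1 to RPTOR had a geometric mean of 1.91 in Hep3B-Con and 1.004 in Hep3B-KD, MLST8 to MTOR of 0.873 and 0.547, and RHEB to TSC2 of 4.50 and 3.46. The groups did not overlap in any of the 5 ratios. Each pair holds at least 1 gene already called, so this is not a result apart from those calls. The share of all gene pairs whose ratios separate was not computed. The two-sided exact permutation test gave p = 0.1 for each, 0.1 after adjustment over the 5 ratios, which is the smallest p that 3 against 3 libraries allow.

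**Figure D3:**
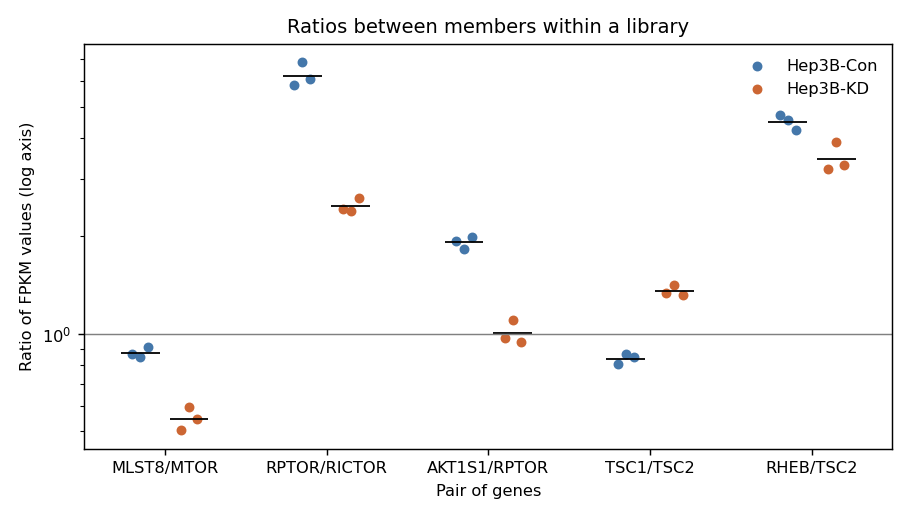
Ratios of FPKM values of 5 pairs of genes (log axis) in each library, with a black line at the geometric mean of the group and a grey line at 1. RPTOR to RICTOR falls from 6.24 to 2.48, and TSC1 to TSC2 crosses the grey line from 0.839 to 1.36. The side of the grey line depends on the exon lengths used.

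Other genes of the pathway were described in 4 lists. Among proteins that assemble or accompany the complexes, 1 of 6 tested genes rose and 1 fell, with a median log2 fold change of 0.04. TBC1D7, the third subunit of the TSC complex, rose from 5.32 ± 0.042 to 6.52 ± 0.33 FPKM (limma adjusted p = 0.00206). TTI1, which helps fold mTOR and related kinases, fell from 23.6 ± 1.0 to 15.7 ± 0.99 FPKM (limma adjusted p = 0.000131). PRR5L and RHEBL1 were below the filter.

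Amino acid sensing had 15 genes higher and 5 lower of 30 tested, with a median of 0.20. SESN3, a sestrin, rose from 1.88 ± 0.13 to 11.5 ± 0.46 FPKM (limma adjusted p = 5.89e-07), BMT2 (SAMTOR, a sensor of S-adenosylmethionine) from 0.598 ± 0.16 to 1.57 ± 0.16 FPKM (limma adjusted p = 0.00145) and FNIP2, a partner of folliculin, from 5.48 ± 0.16 to 13.1 ± 0.14 FPKM (limma adjusted p = 1.07e-06). SEH1L, of the GATOR2 complex, fell from 7.07 ± 0.035 to 3.97 ± 0.32 FPKM (limma adjusted p = 5.2e-05), and the leucine sensor SESN2 from 42.9 ± 1.1 to 24.9 ± 0.85 FPKM (limma adjusted p = 4.6e-06). NPRL2, of GATOR1, fell from 3.88 ± 0.024 to 2.83 ± 0.20 FPKM (limma adjusted p = 0.0011). The third sestrin, SESN1, which the naming rule did not take, rose from 1.81 ± 0.21 to 3.31 ± 0.13 FPKM (limma adjusted p = 0.000344), so 2 of the 3 sestrins rose and 1 fell.

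Growth factor and energy inputs had 9 genes higher and 4 lower of 18 tested, with a median of 0.21. DDIT4 (REDD1), a stress-induced inhibitor of mTORC1, fell from 24.6 ± 1.4 to 5.89 ± 0.57 FPKM (limma adjusted p = 2.76e-06), whereas its relative DDIT4L rose from 0.779 ± 0.15 to 2.65 ± 0.17 FPKM (limma adjusted p = 0.000106). PIK3R1, a regulatory subunit of PI3-kinase, rose from 2.81 ± 0.24 to 6.07 ± 0.27 FPKM (limma adjusted p = 3.16e-05). AKT2 fell from 12.5 ± 0.59 to 9.92 ± 0.23 FPKM (limma adjusted p = 0.000662) and PRKAA1, a catalytic subunit of AMPK, from 23.6 ± 0.85 to 18.8 ± 0.32 FPKM (limma adjusted p = 0.000203).

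Substrates and effectors had 10 genes higher and 7 lower of 22 tested, with a median of 0.03. SGK1, a kinase that mTORC2 phosphorylates, rose from 5.86 ± 0.18 to 15.2 ± 0.36 FPKM (limma adjusted p = 9.33e-07) and NDRG1, a substrate of SGK1, from 2.15 ± 0.30 to 10.9 ± 0.18 FPKM (limma adjusted p = 4.57e-06). LPIN1, a phosphatidate phosphatase under mTORC1, rose from 0.573 ± 0.0067 to 1.46 ± 0.14 FPKM (limma adjusted p = 0.000328). EIF4EBP1, a translation repressor that mTORC1 phosphorylates, fell from 183 ± 4.5 to 83.6 ± 2.7 FPKM (limma adjusted p = 6.63e-07). Its relative EIF4EBP2, which the naming rule did not take, rose from 33.3 ± 0.11 to 46.5 ± 0.55 FPKM (limma adjusted p = 4.02e-06). RPS6 fell from 348 ± 10.1 to 283 ± 3.8 FPKM (limma adjusted p = 6.31e-05), and MAF1, a repressor of RNA polymerase III, from 23.3 ± 2.3 to 19.1 ± 0.96 FPKM (limma adjusted p = 0.0147). All errors are SD with n = 3 per group. The shares called in the 4 lists, from 33.3% to 77.3%, stand beside 59.9% of all genes.

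**Figure D4:**
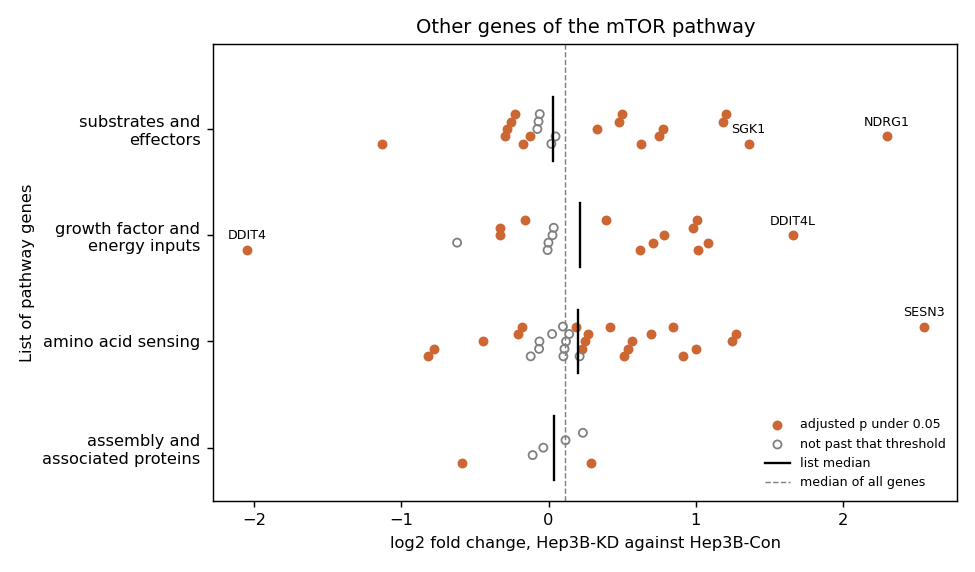
Log2 fold change of the tested genes of 4 lists, Hep3B-KD against Hep3B-Con, with a point per gene, filled where the adjusted p is under 0.05, a black line at the list's median and a dashed line at the median of all genes. The genes farthest from 0 are labelled, with SESN3 and NDRG1 at the right end (2.55 and 2.30) and DDIT4 at the left (-2.05).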

How the data were processed

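RNA-seq of 3 Hep3B-Con and 3 Hep3B-KD libraries was used, grouped by the sample titles. The authors deposited FPKM values in 1 table of 29908 Ensembl genes, 1 column per library. The submitters' processing notes name GRCh37, TopHat2 2.0.12 and Bowtie2 2.0.6, without their role, while exon lengths of GENCODE release 29 (GRCh38) turned 100% of the values into whole reads (within 0.01). Coordinates are those of GENCODE release 29. Intervals cover the spread between libraries.

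Genes that averaged 0.5 FPKM or more were tested as log2(FPKM + 0.1), a scale that understates the change of low genes, with limma 3.58.1 (lmFit, eBayes with trend) in R 4.3.3 and Benjamini-Hochberg adjustment over all 14221. Ratios were tested with a two-sided exact permutation test. The members and lists were chosen with earlier results of these data known. Named genes were the members, DAGLA, up to 3 largest rises and falls of each list with groups apart, the 3 genes most like RICTOR, and genes or copies sharing sequence with a member; some items that this rule takes are not reported here.

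The fit was tested on simulated reads. A first criterion set a minimum share of all changed genes to be recovered, whatever their depth. Most of these genes were recovered, but fewer than that share. The criterion was replaced, after seeing the result, by one limited to genes with more reads. That one was replaced in turn, after seeing that the missed genes had few reads, by a final criterion on still more deeply read genes. Genes as deeply read as the members other than DEPTOR were recovered, with sizes close to the true ones. Recovery of differences as small as those of TSC1, MLST8, RHEB and RPTOR, or of the members not called, was not tested. At a dispersion far above that of these libraries (median 0.000253 within groups over 10417 genes) few changes were recovered and false calls were more frequent among them. Alternatives were the filter, the pseudocount, the scaling, the trend, a replicate block, voom on recovered reads and each library left out, and, added after seeing the data, centring by length and GC content and the reads of RHEBP2. Python 3.11.15, numpy 2.4.6, pandas 2.3.3, scipy 1.17.1 and matplotlib 3.10.9 were used.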

Additional observations from a re-analysis of the deposited data

How the results depend on the processing

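RICTOR, TSC1, AKT1S1, MLST8 and RHEB kept their direction and call under every alternative run, 17 for each and 18 for RHEB. The number of members called ranged from 5 to 7. RPTOR lost its call without a filter on low values (limma adjusted p = 0.0778), after rescaling to the same sum (0.111), without the trend (0.0667) and with each library left out except Hep3B-KD replicate 3 (0.0234 without it); its log2 fold change with a library left out ranged from -0.15 to -0.09. MAPKAP1 passed narrowly after quantile normalization (limma adjusted p = 0.0483) and with voom (0.04997). Signs turned for genes that had not passed: MTOR to 0.021 after rescaling, MAPKAP1 to -0.014 and TSC2 to -0.025 after centring on the median log ratio, TSC2 to -0.070 and DEPTOR to -0.17 after quantile normalization, and TSC2 to -0.095 after centring by length and GC content. With a library left out MTOR ranged from -0.037 to 0.017 and DEPTOR from -0.074 to 0.43. The called genes of the assembly list numbered 2, but 4 after centring on the median log ratio and 1 after centring by length and GC content. The causes were not tested.

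With the replicate block, 5 members were called, RPTOR being lost (limma adjusted p = 0.101). Same-numbered libraries did not deviate together (r = -0.013, -0.066 and -0.001). This cannot tell whether they were handled as pairs, since a pairing may leave no trace in the values. Depth limits DEPTOR, and 3 libraries per group limit every ratio.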
